A study of Mus musculus with 9 samples.

Results

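Collagen chain genes were examined in bulk RNA sequencing of mouse kidney. They were taken as every gene symbol made of Col, a number, the letter a and a second number, which selected 44 of the 26139 symbols in the deposited table. Of these, 11 encode fibrillar chains, 6 encode chains of basement membrane collagen IV and 27 encode other chains. The study gave a herbal preparation from Chinese medicine, Gui-qi-yi-shen granules, in a mouse model of IgA nephropathy, in which IgA is deposited in glomeruli. Kidneys came from 3 groups with 3 libraries each. The GQYS group carried Itgam-IRES-hCD89, a knock-in that places human CD89, an Fc receptor for IgA, behind the myeloid integrin gene Itgam, and received the granules by daily gavage for 5 months. The IgAN group carried the same knock-in and was gavaged with saline. The WT group consisted of wild-type C57/BL6 mice gavaged with saline. Both knock-in groups share the modified Itgam locus, which is active mainly in myeloid cells. As labelled, the IgAN group differs from the WT group by genotype. The GQYS group differs from the WT group by genotype and the granules together. The labels do not name the strain background of the knock-in. The labels give no age or sex. Nor do they say whether each library is a different mouse, and the p-values therefore reflect only how these libraries vary, which may in part be technical.

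Collagens are built from 3 chains wound into a triple helix, in which glycine recurs at regular intervals. Fibrillar collagens such as types I, III and V form the fibres of the interstitium and are the bulk of scar matrix in kidney fibrosis. Collagen IV forms the network of basement membranes: the alpha1 and alpha2 chains are widespread, including in the mesangial matrix and tubular basement membranes, whereas the alpha3, alpha4 and alpha5 chains form the mature glomerular basement membrane, are made by podocytes in the glomerulus, and are mutated in Alport syndrome. Types VI, XIV, XV and XVIII link fibres, cells and basement membranes.

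Promoter sequences are shown for a fibrillar gene among the 5 collagen genes with the smallest p in IgAN against WT (Col5a1), for 2 such genes of the other classes (Col18a1 and Col6a3), for the fibrillar marker Col3a1 and for the shared starts of the collagen IV gene pairs. They are from RefSeq on GRCm38.p6, whereas the deposited values rest on GRCm39, so these positions describe the sequences and not the measurements. RefSeq promoter windows of 300 bases, from 250 before to 50 after a gene's start, were found for 35 of the 44 genes, in 38 windows. Only upstream bases outside exons annotated in GENCODE M21 are printed, except for a stretch of 30 bases at Col4a1 and Col4a2. It lies within the 5′ ends of these 2 genes, which overlap by 85 bases in RefSeq. Transcripts from the starts used for the 2 windows share 22 bases. The stretches are chr2:27886175-27886424 on the plus strand for Col5a1, chr1:45311288-45311537 on the plus strand for Col3a1, chr10:77166549-77166780 on the minus strand for the more upstream of 2 Col18a1 starts, and chr1:90843972-90844221 on the minus strand for Col6a3. The Col4a2 stretch is chr8:11312760-11312789 on the plus strand, and the stretch upstream of Col4a4, towards its neighbour Col4a3, is chr1:82586850-82586920, read on the minus strand. Capitals mark a CCAAT box (CCAAT), a GC box (GGGCGG) or a TATA box (TATAAA) on either strand; none of these motifs overlaps another in the printed stretches.
Col5a1: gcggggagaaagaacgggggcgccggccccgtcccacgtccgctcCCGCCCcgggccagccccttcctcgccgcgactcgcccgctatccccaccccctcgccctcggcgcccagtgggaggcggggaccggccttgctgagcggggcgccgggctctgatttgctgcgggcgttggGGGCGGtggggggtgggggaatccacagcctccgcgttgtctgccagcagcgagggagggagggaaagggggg
Col18a1: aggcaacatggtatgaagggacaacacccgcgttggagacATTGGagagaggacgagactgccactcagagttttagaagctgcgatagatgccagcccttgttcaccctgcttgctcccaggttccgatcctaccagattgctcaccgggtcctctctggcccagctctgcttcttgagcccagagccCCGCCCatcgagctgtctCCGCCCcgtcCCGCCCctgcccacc
Col6a3: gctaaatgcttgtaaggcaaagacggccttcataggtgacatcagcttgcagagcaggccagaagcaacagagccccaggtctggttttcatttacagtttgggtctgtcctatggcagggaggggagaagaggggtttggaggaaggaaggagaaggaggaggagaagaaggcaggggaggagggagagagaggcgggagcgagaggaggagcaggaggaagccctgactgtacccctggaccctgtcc
Col3a1: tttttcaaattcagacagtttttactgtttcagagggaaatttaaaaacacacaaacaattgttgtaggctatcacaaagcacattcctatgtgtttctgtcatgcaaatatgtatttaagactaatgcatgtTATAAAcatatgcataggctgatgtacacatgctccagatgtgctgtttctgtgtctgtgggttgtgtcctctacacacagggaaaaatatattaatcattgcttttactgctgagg
Col4a2: cccgaggagctccCCAATttgttggcgctg
Col4a4: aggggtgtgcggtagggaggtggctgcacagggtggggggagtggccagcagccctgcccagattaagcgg
The GC boxes lay 205 and 73 bases before the start of Col5a1 and 61, 43 and 33 bases before that of Col18a1, which also held a CCAAT box 210 bases before its start. Col3a1 had no GC box in this window and a TATA box 117 bases before its start, and the CCAAT box near Col4a2 lay 32 bases before it. Among all 32851 RefSeq windows of this length, 35.7% held a GC box, 37.4% a CCAAT box and 13.6% a TATA box, against 23, 13 and 5 of the 38 collagen windows. The stretches of Col6a3 and of Col4a4 held none of these letters, which says nothing about the factors that bind there.

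The deposited values are FPKM, fragments per kilobase of gene scaled to library size, and their steps gave back 30564947 to 38161564 gene reads per library. The first principal component of the tested genes, with 41.9% of the variance, set IgAN replicate 1 and WT replicate 1 (23.8 and 28.1) apart from the other 7 libraries, which lay between -19.1 and 3.09. All 8 of the tubule markers checked passed the filter on low values, and their summed level was 3537 to 3841 FPKM in GQYS, 3667 to 4461 FPKM in IgAN and 3132 to 4241 FPKM in WT. The 6 markers of tubular injury, of which 5 passed the filter and none was at 0 in any library, summed to 57.6 to 72.6 FPKM in GQYS and to 219, 80.3 and 92.3 FPKM in IgAN replicates 1, 2 and 3, against 70.2 to 76.0 FPKM in WT. Their part in the collagen values was not tested.

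FPKM is corrected for gene length, so levels of different genes can be set side by side. Collagen IV chains were the most abundant collagen transcripts of these kidneys. Averaged over all 9 libraries, Col4a1 stood at 39.5 FPKM, Col4a3 at 35.7 FPKM, Col4a2 at 26.2 FPKM and Col4a4 at 25.5 FPKM. Next came Col18a1 at 21.3 FPKM, followed by the fibrillar genes Col27a1 at 12.9 FPKM, Col1a2 at 11.2 FPKM and Col3a1 at 8.11 FPKM. The 5 chains Col4a1 to Col4a5 made up 60.6% to 62.7% of the summed collagen FPKM in GQYS, 50.2% to 60.9% in IgAN and 53.5% to 66.2% in WT. The share was lowest in IgAN replicate 1 and next lowest in WT replicate 1. Of the 44 genes, 19 reached 1 FPKM in at least 3 libraries and were tested, namely 6 fibrillar, 5 type IV and 8 other genes. Another 15 stayed below that filter but reached 0.1 FPKM somewhere, and 10 never reached 0.1 FPKM. Those 10 include the cartilage collagen genes Col2a1, Col9a1 and Col10a1, the last with 0 reads in every library; counting error alone allows up to 3 reads at a count of 0.

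**Figure D1:**
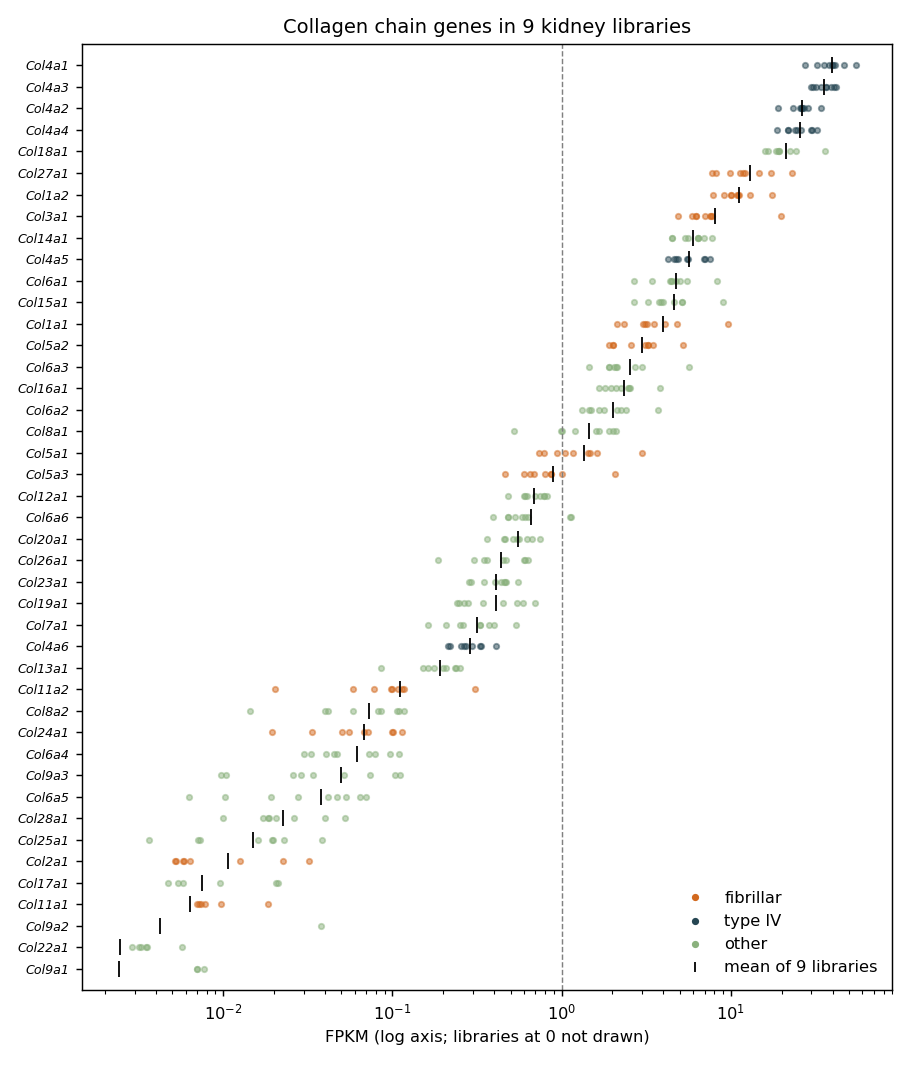
FPKM (log axis) of the 43 collagen genes with at least 1 read, 1 dot per library and a bar for the mean of 9 libraries, coloured by class; the dashed line marks 1 FPKM. The 4 highest genes encode collagen IV chains, and Col4a1 leads at a mean of 39.5 FPKM.

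Knock-in kidneys on saline were first set against wild-type kidneys on saline. No collagen gene passed the test. Limma on log2(FPKM + 1), with Benjamini-Hochberg adjustment over all genes tested, called 0 of 19, while 0.353% of the 11617 tested genes were called. At an unadjusted p under 0.05, 10 of the 19 had higher values in IgAN and 1 had lower values, where 6.97% and 3.37% of all tested genes did. The 10 were Col1a1, Col1a2, Col5a1, Col4a1, Col4a2, Col6a1, Col6a2, Col6a3, Col15a1 and Col18a1, and the 1 was Col14a1. Limma voom on the recovered reads, added after seeing the data, also called 0, where 0.284% of all tested genes were called, and had 11 higher and 1 lower at an unadjusted p under 0.05, where 6.81% and 3.48% of all tested genes did. The log2 change was above 0 in 13 of the 19, as in 54.7% of all tested genes. With library quality weights, an alternative fit, Col4a1, Col5a1 and Col18a1, 3 of the 19, passed, where 5.64% of all tested genes did. The median log2 change of the 19 was 0.46, against 0.02 over all tested genes; by class it was 0.50 in fibrillar, -0.11 in type IV and 0.51 in other genes.

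IgAN replicate 1 was the library with the highest level in 12 of the 19 tested collagen genes, as it was for 19.5% of all tested genes. Without that library the median log2 change of the 19 was 0.29, and 5 of 19 rather than 10 had an unadjusted p under 0.05 with higher values in IgAN, where 4.71% of all tested genes did. There 0 of 19 had lower values, where 3.04% did, and 0 passed the adjusted threshold, where 0.199% did. With WT replicate 1 left out as well, 8 had higher and 1 had lower values at an unadjusted p under 0.05, where 6.74% and 7.17% of all tested genes did, and 0 passed the adjusted threshold, where 0.499% did. IgAN replicate 1 also carried Havcr1, the tubular injury marker KIM-1, at 43.8 FPKM, while the other 8 libraries were between 0.116 and 1.79 FPKM. Smooth muscle and myofibroblast markers, 6 genes of which 5 passed the filter and none was at 0, summed to 75.6 to 86.6 FPKM in IgAN against 79.8 FPKM in WT replicate 1 and 41.2 and 52.3 FPKM in WT replicates 2 and 3. Acta2 and Tagln made up most of each sum. Acta2 was higher in IgAN without overlap, and the other members, Tagln included, overlapped between IgAN and WT. Fibroblast, mesangial and pericyte markers, 10 genes of which 9 passed the filter and none was at 0, summed to 119, 81.1 and 146 FPKM in IgAN, against 102, 101 and 91.0 FPKM in WT. The renin gene Ren1 made up the largest share of each sum, at 72.4, 39.1 and 97.1 FPKM in IgAN, against 44.1, 45.5 and 41.0 FPKM in WT. Within this list Tcf21, which encodes a mesenchymal transcription factor, was at 6.23, 7.67 and 9.44 FPKM in IgAN, against 24.7, 20.3 and 18.2 FPKM in WT, without overlap and opposite in order to most of the collagen genes. Every other member of the list overlapped between IgAN and WT. The list was split in IgAN replicate 1. Pdgfrb, Gata3 and Dpt had their highest levels of the 9 libraries there, and Rgs5, Itga8 and Tcf21 their lowest. Rgs5 was at 11.8 FPKM and Itga8 at 1.08 FPKM in that library. Urothelium markers, 6 genes of which 2 passed the filter, with Krt20 at 0 in WT replicate 2, summed to 14.8, 5.57 and 1.80 FPKM in IgAN, against 1.31, 2.40 and 14.8 FPKM in WT. In IgAN replicate 1 this was nearly all Krt20, at 14.2 FPKM, while the uroplakin genes Upk1a, Upk2 and Upk3a had their lowest levels of the 9 libraries there, at 0.275, 0.0374 and 0.177 FPKM. These 3 genes were highest in WT replicate 3. Fat markers, 6 genes of which 1 passed the filter, summed to 57.8, 48.8 and 51.1 FPKM in IgAN, against 81.6, 47.6 and 84.4 FPKM in WT. Fabp4 made up most of each sum. The fat marker Cfd was at 11.4 FPKM in WT replicate 3 and at no more than 0.158 FPKM in any other library. Whether these shifts bear on the collagen values was not tested. In whole kidney RNA, more cells of a type cannot be told apart from more RNA per cell.

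Among the fibrillar genes, Col1a1 and Col1a2 encode the 2 kinds of chain of collagen I, the main fibre of scar tissue. Col1a1 was at 9.67, 3.10 and 4.79 FPKM in IgAN replicates 1 to 3, against 3.18, 3.03 and 2.13 FPKM in WT. The groups overlapped, because IgAN replicate 2 lay below WT replicate 1. In log2 terms the change was 0.75 ± 0.31 (SE; limma adjusted p = 0.406), and 0.38 without IgAN replicate 1. Its partner Col1a2 was at 17.6, 11.1 and 12.9 FPKM in IgAN, against 11.1, 10.1 and 7.90 FPKM in WT, a log2 change of 0.46 ± 0.17 (SE; limma adjusted p = 0.358), and 0.29 without IgAN replicate 1. Its groups overlapped as well, with IgAN replicate 2 just below WT replicate 1. The ratio of Col1a2 to Col1a1 was 1.82, 3.57 and 2.70 in IgAN, against 3.50, 3.33 and 3.70 in WT, so it was lowest in the library with the most Col1a1.

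Col3a1, the chain of collagen III that co-assembles with collagen I in reticular fibres, was at 19.7, 6.22 and 7.65 FPKM in IgAN, against 7.75, 7.06 and 4.91 FPKM in WT. Only IgAN replicate 1 stood above the WT range, and the log2 change was 0.54 ± 0.33 (SE; limma adjusted p = 0.635) with that library, 0.08 without it and 0.84 without IgAN replicate 2. Col5a1, a chain of collagen V, which nucleates collagen I fibrils, was the fibrillar gene with the smallest p. It was at 3.01, 1.44 and 1.63 FPKM in IgAN, against 0.784, 0.938 and 0.737 FPKM in WT, and the groups did not overlap. The log2 change was 0.70 ± 0.18 (SE; limma adjusted p = 0.162), and 0.48 without IgAN replicate 1. These levels rest on 194 to 783 reads per library.

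The remaining fibrillar genes did not share this order. Col5a2, which encodes the other main collagen V chain, was at 3.25, 3.47 and 1.90 FPKM in IgAN, against 2.01, 5.22 and 3.26 FPKM in WT. Col27a1, a fibrillar collagen of cartilage and epithelia, was at 17.3, 12.2 and 7.77 FPKM in IgAN, against 23.0, 9.86 and 11.8 FPKM in WT, with its highest value in WT replicate 1. IgAN and WT overlapped in both genes. Below the filter, Col5a3 was at 2.08, 0.648 and 0.802 FPKM in IgAN, against 0.600, 0.870 and 0.460 FPKM in WT. Col11a2 was at 0.308, 0.0978 and 0.108 FPKM in IgAN, against 0.114, 0.0203 and 0.0585 FPKM in WT. In both of these low genes IgAN replicate 1 was the highest library and the others overlapped with WT. Summed over all 11 fibrillar genes, the level was 73.0, 38.4 and 37.6 FPKM in IgAN, against 48.7, 37.2 and 31.4 FPKM in WT.

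**Figure D2:**
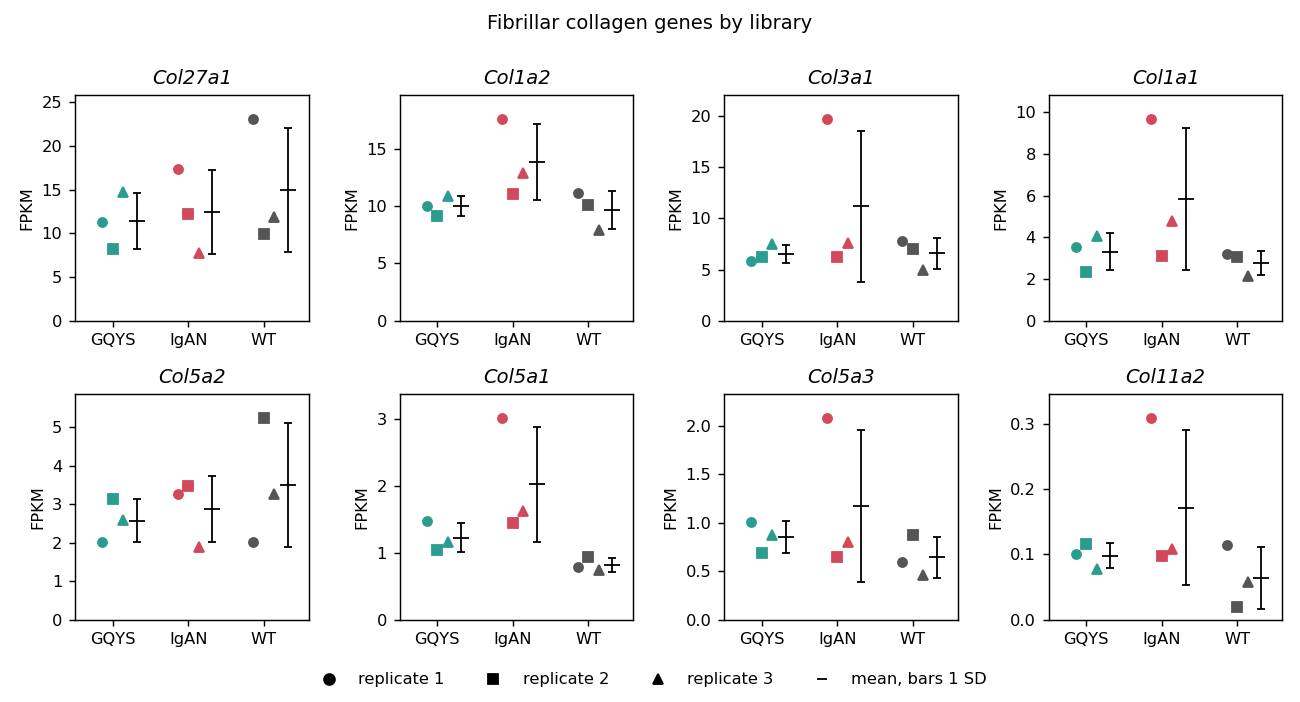
FPKM of the 8 fibrillar collagen genes with the highest mean level, by group, with a symbol for each replicate and the mean with bars of 1 SD (n = 3). IgAN replicate 1 is the highest library for Col1a1, Col1a2, Col3a1 and Col5a1, and WT replicate 1 is the highest for Col27a1.

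Within collagen IV, the log2 change in IgAN against WT was above 0 for Col4a1 and Col4a2 and below 0 for Col4a3, Col4a4 and Col4a5. Of these 5 tested genes, only Col4a1 had ranges apart. Col4a1 had the smallest p of the 19 collagen genes. It was at 54.7, 41.2 and 46.7 FPKM in IgAN, against 27.5, 32.2 and 35.7 FPKM in WT, and the groups did not overlap. The log2 change was 0.56 ± 0.13 (SE; limma adjusted p = 0.129), and 0.46 without IgAN replicate 1. Col4a2, its partner chain and head-to-head neighbour, was at 34.0, 25.6 and 28.6 FPKM in IgAN, against 18.9, 23.4 and 26.2 FPKM in WT. Here IgAN replicate 2 lay just below WT replicate 3, and the log2 change was 0.35 ± 0.14 (SE; limma adjusted p = 0.390). It was 0.23 without WT replicate 1, and 0.12 with both IgAN replicate 1 and WT replicate 1 left out. Col4a1 and Col4a2 were lowest in the same library, WT replicate 1, and highest in the same library, IgAN replicate 1.

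Col4a3, which is expressed by podocytes and some tubule cells, was at 36.4, 36.5 and 30.6 FPKM in IgAN, against 32.0, 41.0 and 41.7 FPKM in WT. Col4a4, its head-to-head neighbour, was at 21.8, 30.2 and 21.8 FPKM in IgAN, against 18.9, 29.8 and 32.4 FPKM in WT. Col4a5 was at 4.26, 7.01 and 4.61 FPKM in IgAN, against 4.72, 6.97 and 7.55 FPKM in WT. For all 3 genes the groups overlapped and limma gave adjusted p between 0.742 and 0.921. Podocyte markers, 8 genes of which 7 passed the filter and none was at 0, summed to 67.4 to 90.2 FPKM in IgAN and 72.4 to 84.1 FPKM in WT. Col4a6, which pairs with collagen IV alpha5 in smooth muscle and Bowman's capsule basement membranes, stayed below the filter at 0.333, 0.409 and 0.331 FPKM in IgAN, against 0.218, 0.271 and 0.296 FPKM in WT. The groups did not overlap, and the 2-sided exact permutation p was 0.1, the smallest that 3 against 3 libraries allow. These values rest on 45 to 95 reads per library.

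Ratios between chains, which were chosen after their values were seen, are given as a description. The ratio of Col4a1 to Col4a2 was 1.61, 1.61 and 1.63 in IgAN, against 1.45, 1.37 and 1.36 in WT. The ratio of Col4a3 to Col4a1 was 0.666, 0.886 and 0.655 in IgAN, against 1.16, 1.28 and 1.17 in WT. IgAN libraries thus held less Col4a3 than Col4a1 transcript per length in all 3 libraries, and WT libraries held more in all 3. The groups did not overlap in either ratio. The annotated 5′ ends of Col4a1 and Col4a2 overlap, as do those of Col4a3 and Col4a4, while the strand setting of the counting is not stated in the labels, and reads from these overlaps cannot be told apart.

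**Figure D3:**
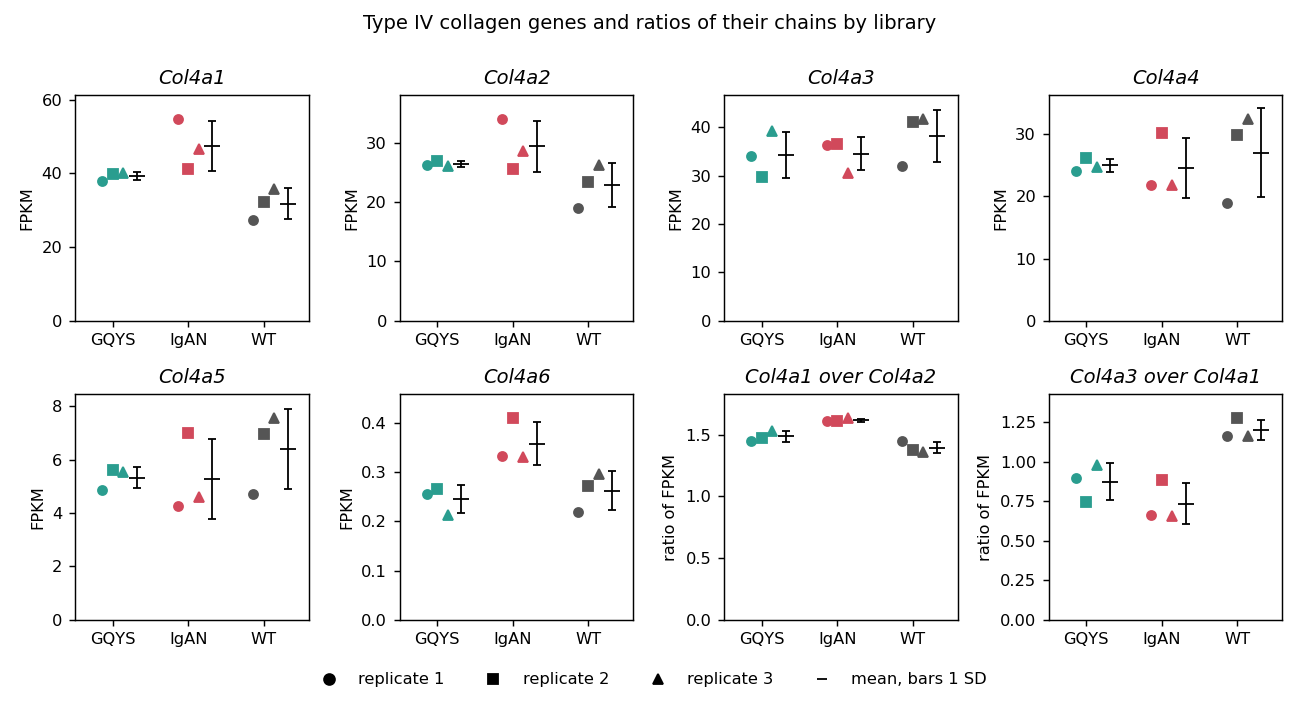
FPKM of the 6 collagen IV genes and 2 ratios of their FPKM values, by group, with a symbol for each replicate and the mean with bars of 1 SD (n = 3). Col4a1 is between 41.2 and 54.7 FPKM in IgAN and between 27.5 and 35.7 FPKM in WT, and the ratio of Col4a3 to Col4a1 is below 1 in every GQYS and IgAN library and above 1 in every WT library.

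Among the other collagens, type VI showed the same order in all 3 of its tested chains. Collagen VI forms beaded filaments around cells from chains encoded by Col6a1, Col6a2 and Col6a3. Col6a1 was at 8.30, 4.99 and 5.52 FPKM in IgAN, against 4.75, 4.46 and 2.67 FPKM in WT. Col6a2 was at 3.70, 2.25 and 2.42 FPKM in IgAN, against 2.13, 1.67 and 1.32 FPKM in WT. Col6a3 was at 5.70, 2.73 and 2.97 FPKM in IgAN, against 2.09, 2.04 and 1.44 FPKM in WT. In each of the 3 the groups did not overlap and IgAN replicate 1 was the highest library. Their log2 changes were 0.55 ± 0.21, 0.48 ± 0.16 and 0.70 ± 0.21 (SE; limma adjusted p = 0.370, 0.311 and 0.233), and 0.36, 0.31 and 0.44 without IgAN replicate 1; that of Col6a1 was 0.35 without WT replicate 3. The 3 remaining type VI genes, Col6a4, Col6a5 and Col6a6, stayed below the filter and had no such order: Col6a4 was at 0.0331, 0.0405 and 0.0302 FPKM in IgAN, against 0.0970, 0.109 and 0.0450 FPKM in WT, on 8 to 33 reads per library.

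Col18a1 and Col15a1 encode the multiplexins, basement membrane collagens whose ends release the anti-angiogenic fragments endostatin and restin. Col18a1 was at 36.2, 24.2 and 22.3 FPKM in IgAN, against 15.9, 16.5 and 19.4 FPKM in WT, and the groups did not overlap. Its log2 change was 0.62 ± 0.16 (SE; limma adjusted p = 0.180), and 0.41 without IgAN replicate 1. Col15a1 was at 8.95, 4.62 and 5.14 FPKM in IgAN, against 2.69, 3.98 and 3.27 FPKM in WT, also without overlap. Its log2 change was 0.71 ± 0.22 (SE; limma adjusted p = 0.244), and 0.46 without IgAN replicate 1. In all, 7 of the 19 tested collagen genes had FPKM ranges apart and higher in IgAN, where 9.18% of all tested genes did, and 0 had ranges apart and lower, where 4.8% did.

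Col14a1 encodes a fibril-associated collagen that limits fibril growth, and it was the 1 of the 8 other tested genes with a log2 change below 0 in IgAN against WT. It was at 4.52, 4.49 and 5.56 FPKM in IgAN, against 5.38, 6.95 and 6.44 FPKM in WT. The highest IgAN library lay just above the lowest WT library, and the log2 change was -0.31 ± 0.13 (SE; limma adjusted p = 0.431). Col8a1, a short-chain collagen of vessel walls, was at 1.60, 1.91 and 2.11 FPKM in IgAN, against 0.523, 1.21 and 1.66 FPKM in WT. Col16a1, a fibril-associated collagen, was at 3.82, 2.25 and 1.81 FPKM in IgAN, against 2.47, 2.11 and 1.67 FPKM in WT. Both overlapped between the groups. Below the filter, Col26a1 was at 0.350, 0.305 and 0.186 FPKM in IgAN, against 0.609, 0.450 and 0.636 FPKM in WT, and Col8a2 was at 0.109, 0.117 and 0.107 FPKM in IgAN, against 0.0824, 0.0584 and 0.0144 FPKM in WT. The groups did not overlap in either gene, and the 2-sided exact permutation p was 0.1 for each, the smallest possible. These genes were picked out after their values were seen. Among the 25 members below the filter, 2 had ranges apart and higher in IgAN and 3 had ranges apart and lower, where 4.5% and 4.95% of all 12180 genes below the filter with at least 1 read did.

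**Figure D4:**
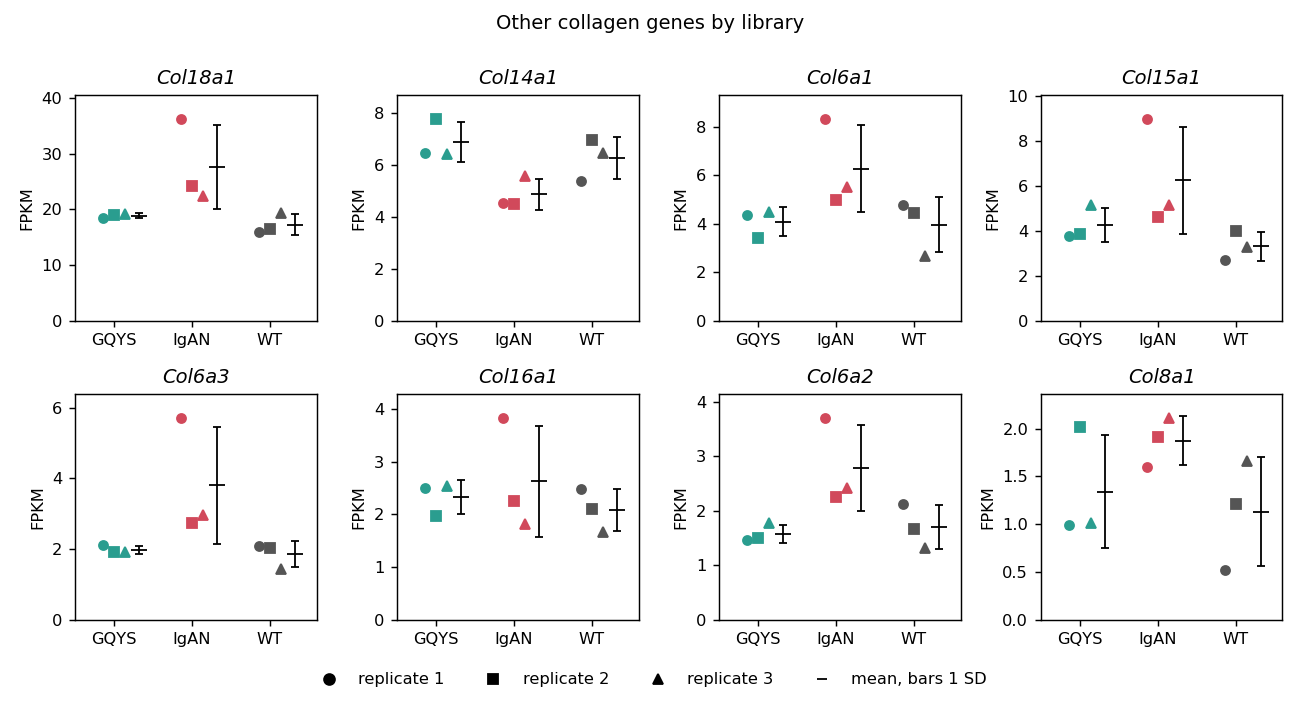
FPKM of the 8 other collagen genes with the highest mean level, by group, with a symbol for each replicate and the mean with bars of 1 SD (n = 3). Col18a1, Col15a1, Col6a1, Col6a2 and Col6a3 have no overlap between IgAN and WT, while Col14a1 is lowest in IgAN, at a mean of 4.86 FPKM.

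Knock-in kidneys that received the granules were then set against knock-in kidneys on saline. This comparison of GQYS with IgAN shares the IgAN libraries with the comparison above, so the 2 sets of values are not independent. Limma called 0 of the 19 collagen genes, where 0.198% of all tested genes were called. At an unadjusted p under 0.05, 6 had lower values in GQYS (Col1a2, Col5a1, Col6a1, Col6a2, Col6a3 and Col18a1), where 4.9% of all tested genes did, and 1, Col14a1, had higher values, where 5.53% did. Limma voom on the recovered reads also called 0, where 0.138% of all tested genes were called, with 6 lower and 1 higher at an unadjusted p under 0.05, where 4.72% and 5.41% of all tested genes did. The log2 change was above 0 in 3 of the 19, and in 51.6% of all tested genes. The median log2 change of the 19 was -0.32, against 0.01 over all tested genes, and -0.15 without IgAN replicate 1. Without that library 3 genes rather than 6 had lower values at an unadjusted p under 0.05, where 2.98% of all tested genes did, and 1 had higher values, where 4.2% did. The adjusted threshold was passed by 0 of 19 there, and by 0.0605% of all tested genes. With WT replicate 1 left out as well, 3 had lower and 1 had higher values at an unadjusted p under 0.05, where 5.27% and 7.05% did, and 0 passed the adjusted threshold, where 0.542% did.

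Of the 6 tested fibrillar genes, all had a log2 change below 0 in GQYS against IgAN, and only Col1a2 had ranges apart. Col1a1 was at 3.52, 2.35 and 4.07 FPKM in GQYS replicates 1 to 3, and its log2 change against IgAN was -0.58 ± 0.31 (SE; limma adjusted p = 0.588), or -0.20 without IgAN replicate 1 and -0.89 without IgAN replicate 2. Col1a2 was at 9.99, 9.17 and 10.9 FPKM in GQYS, below all 3 IgAN libraries. Its log2 change was -0.41 ± 0.17 (SE; limma adjusted p = 0.441), or -0.24 without IgAN replicate 1. Col3a1 was at 5.86, 6.27 and 7.53 FPKM in GQYS, which overlapped with IgAN, and its log2 change of -0.53 ± 0.33 (SE; limma adjusted p = 0.664) was -0.07 without IgAN replicate 1 and -0.83 without IgAN replicate 2. Col5a1 was at 1.47, 1.05 and 1.17 FPKM in GQYS, and GQYS replicate 1 lay just above the lowest IgAN library. Its log2 change was -0.41 ± 0.18 (SE; limma adjusted p = 0.456), or -0.19 without IgAN replicate 1. Col5a2 was at 2.01, 3.13 and 2.58 FPKM and Col27a1 at 11.3, 8.23 and 14.7 FPKM in GQYS, both within the IgAN range.

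Among the type IV genes, Col4a1 was at 38.0, 39.9 and 40.1 FPKM in GQYS, below the 3 IgAN libraries. The lowest IgAN library was 41.2 FPKM, and the log2 change was -0.26 ± 0.13 (SE; limma adjusted p = 0.562), or -0.15 without IgAN replicate 1. Col4a2 was at 26.2, 27.0 and 26.2 FPKM in GQYS and overlapped with IgAN. Col4a3 was at 34.0, 29.8 and 39.2 FPKM, Col4a4 at 24.0, 26.2 and 24.7 FPKM and Col4a5 at 4.87, 5.61 and 5.52 FPKM in GQYS, all overlapping with IgAN. The ratio of Col4a1 to Col4a2 was 1.45, 1.48 and 1.53 in GQYS, below every IgAN library. The ratio of Col4a3 to Col4a1 was 0.896, 0.746 and 0.978 in GQYS, which overlapped with IgAN. Podocyte markers summed to 87.2 to 109 FPKM in GQYS against 67.4 to 90.2 FPKM in IgAN. Endothelial markers, 8 genes that all passed the filter, summed to 178 to 183 FPKM in GQYS against 125 to 159 FPKM in IgAN. Smooth muscle and myofibroblast markers summed to 58.4, 49.5 and 46.0 FPKM in GQYS, against 84.8, 75.6 and 86.6 FPKM in IgAN. These sums did not overlap and were lower in GQYS. Acta2 and Tagln made up most of each sum and were lower in GQYS without overlap. Myh11, Cnn1, Actg2 and Des overlapped between GQYS and IgAN. Fibroblast, mesangial and pericyte markers summed to 97.5, 121 and 127 FPKM in GQYS, against 119, 81.1 and 146 FPKM in IgAN. Tcf21, at 18.4, 15.9 and 20.9 FPKM in GQYS, and Itga8, at 1.56, 1.67 and 1.95 FPKM, lay above all 3 IgAN libraries. Dpt, at 1.04, 0.991 and 2.20 FPKM in GQYS, and Mfap5, at 0.218, 0.159 and 0.0424 FPKM, lay below all 3. The remaining members of this list overlapped between GQYS and IgAN. The part of these markers in the collagen values was not tested.

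All 3 tested type VI genes lay below the IgAN range in GQYS. Col6a1 was at 4.36, 3.40 and 4.49 FPKM, Col6a2 at 1.46, 1.50 and 1.77 FPKM, and Col6a3 at 2.12, 1.91 and 1.91 FPKM in GQYS. Their log2 changes were -0.50 ± 0.21, -0.54 ± 0.16 and -0.64 ± 0.21 (SE; limma adjusted p = 0.449, 0.266 and 0.302), and -0.30, -0.37 and -0.37 without IgAN replicate 1. Col18a1 was at 18.4, 19.1 and 19.2 FPKM in GQYS, also below the IgAN range, with a log2 change of -0.49 ± 0.16 (SE; limma adjusted p = 0.322), or -0.29 without IgAN replicate 1. Col15a1 was at 3.75, 3.88 and 5.14 FPKM in GQYS and overlapped with IgAN. Col14a1 again stood on the other side: it was at 6.44, 7.75 and 6.41 FPKM in GQYS, above all 3 IgAN libraries, with a log2 change of 0.43 ± 0.13 (SE; limma adjusted p = 0.265). Col8a1, at 0.986, 2.02 and 1.01 FPKM in GQYS, and Col16a1, at 2.50, 1.96 and 2.54 FPKM in GQYS, overlapped with IgAN. In all, 6 of the 19 had ranges apart and lower in GQYS, where 9.29% of all tested genes did, and 1 had ranges apart and higher, where 9.84% did. Below the filter, 3 members had ranges apart and higher in GQYS (Col26a1, Col6a4 and Col6a6), where 7.45% of all genes below the filter with reads did. Col26a1 was at 0.601, 0.363 and 0.469 FPKM in GQYS, against 0.350, 0.305 and 0.186 FPKM in IgAN. The 2 with ranges apart and lower were Col4a6, at 0.256, 0.267 and 0.212 FPKM in GQYS, and Col8a2, at 0.0399, 0.0414 and 0.0854 FPKM in GQYS, where 3.75% of such genes did.

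The other members below the filter are given by their range over the 9 libraries. Col12a1 and Col20a1, both of the fibril-associated class, ran from 0.484 to 0.817 FPKM and from 0.363 to 0.744 FPKM. Col19a1, of the same class, ran from 0.241 to 0.701 FPKM. Col6a6 ran from 0.396 to 1.13 FPKM, with GQYS replicate 1 and WT replicate 2 both at 1.13 FPKM and every other library at 0.632 FPKM or less. The transmembrane collagen genes Col23a1 and Col13a1 ran from 0.284 to 0.551 FPKM and from 0.0859 to 0.253 FPKM. Col7a1, which encodes the anchoring fibrils of skin, ran from 0.162 to 0.541 FPKM, while Col9a3 of cartilage and the fibrillar gene Col24a1 reached no more than 0.110 FPKM and 0.114 FPKM. The fibrillar genes Col5a3 and Col11a2 were at 0.686 to 1.01 FPKM and at 0.0783 to 0.116 FPKM in GQYS, overlapping with both IgAN and WT. The 10 genes that never reached 0.1 FPKM were Col2a1, Col11a1, Col6a5, Col28a1, Col25a1, Col17a1, Col22a1, Col9a1, Col9a2 and Col10a1, and the highest value among them was 0.0699 FPKM of Col6a5 in GQYS replicate 2.

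The comparison of GQYS with WT set knock-in kidneys after the granules against wild-type kidneys on saline. Genotype and the granules therefore cannot be told apart. Limma called 0 of 19 collagen genes and 0% of all tested genes. At an unadjusted p under 0.05, only Col4a1 had higher values, where 3.33% of all tested genes did, and 0 had lower values, where 1.1% did. Limma voom on the recovered reads called 0 and also had 1 gene higher and 0 lower at an unadjusted p under 0.05, where 3.35% and 1.08% of all tested genes did. Without WT replicate 1 and IgAN replicate 1 together, 0 had higher and 3 had lower values at an unadjusted p under 0.05, where 6.62% and 6.6% of all tested genes did. Without IgAN replicate 1 alone, 2 had higher and 0 had lower values, where 3.5% and 1.15% did. Col4a1 was at 38.0 to 40.1 FPKM in GQYS, against 27.5 to 35.7 FPKM in WT, without overlap, and its log2 change was 0.31 ± 0.13 (SE; limma adjusted p = 0.999). Endothelial markers summed to 178 to 183 FPKM in GQYS, against 140 to 160 FPKM in WT, and podocyte markers to 87.2 to 109 FPKM in GQYS, against 72.4 to 84.1 FPKM in WT, both without overlap and higher in GQYS, as Col4a1 was. Smooth muscle and myofibroblast markers summed to 46.0 to 58.4 FPKM in GQYS, against 41.2 to 79.8 FPKM in WT. The part of these markers in the Col4a1 values was not tested. Col5a1 was at 1.05 to 1.47 FPKM in GQYS, against 0.737 to 0.938 FPKM in WT, also without overlap, with a log2 change of 0.29 ± 0.18 (SE; limma adjusted p = 0.999). These were the 2 of 19 with ranges apart and higher, where 7.14% of all tested genes had that, and 0 had ranges apart and lower, where 2.61% did. Next by p came Col4a2, Col15a1 and Col4a5, with log2 changes of 0.22 ± 0.14, 0.29 ± 0.22 and -0.21 ± 0.19 (SE). Single libraries moved all 3: Col4a2 was at 0.09 without WT replicate 1, Col15a1 at 0.17 without GQYS replicate 3 and 0.18 without WT replicate 1, and Col4a5 at -0.38 without WT replicate 1 and -0.09 without WT replicate 3, all as log2 changes. The ratio of Col4a3 to Col4a1 was 0.746 to 0.978 in GQYS, against 1.16 to 1.28 in WT, and did not overlap. The log2 change was above 0 in 13 of the 19, as in 59.3% of all tested genes, and its median was 0.07, against 0.03 over all tested genes. Below the filter, 0 members had ranges apart in either direction, where 4.58% of such genes were higher and 2.59% lower.

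**Figure D5:**
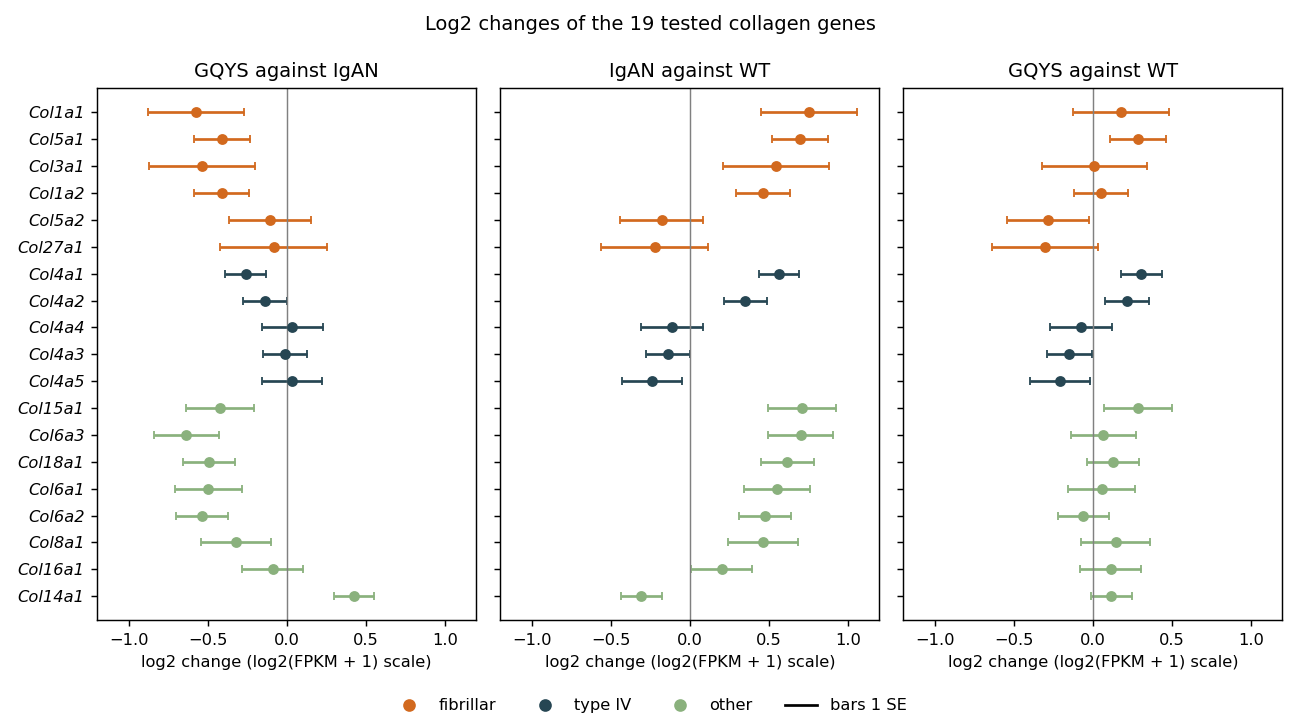
Log2 changes with bars of 1 SE (limma on log2(FPKM + 1)) of the 19 tested collagen genes in 3 comparisons, coloured by class. None passed an adjusted p of 0.05; Col1a1 had a log2 change of 0.75 and Col14a1 one of -0.31 in IgAN against WT, and Col6a3 one of -0.64 in GQYS against IgAN.

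Genes that fold, trim, cross-link or bind collagen were compared alongside. Of 18 tested genes of collagen folding and modification, P4ha1 was the 1 that rose in IgAN, and 0 fell. At an unadjusted p under 0.05, 7 of the 18 had higher values in IgAN and 1 had lower values, where 6.97% and 3.37% of all tested genes did, and the median log2 change of the 18 was 0.21. By the adjusted threshold 0.353% of all tested genes were called. P4ha1 encodes a catalytic subunit of prolyl 4-hydroxylase, which hydroxylates collagen prolines to stabilise the helix. It was at 27.1, 37.1 and 32.1 FPKM in IgAN, against 18.9, 15.1 and 17.3 FPKM in WT, and the groups did not overlap. This was a log2 change of 0.87 ± 0.13 (SE; limma adjusted p = 0.0340). This call ended without each of 7 libraries in turn, all 3 of GQYS, IgAN replicates 2 and 3, and WT replicates 2 and 3, with adjusted p between 0.0561 and 0.148, and held without IgAN replicate 1 (0.0446) and without WT replicate 1 (0.0225). The paralogous subunit gene P4ha2 was at 16.6, 18.2 and 16.0 FPKM in IgAN, against 10.5, 8.51 and 12.1 FPKM in WT, with an adjusted p of 0.0762. In GQYS against IgAN, 0 of the 18 passed; P4ha1 was at 19.4, 21.3 and 18.0 FPKM in GQYS, below all IgAN libraries, with a log2 change of -0.68 ± 0.13 (SE; limma adjusted p = 0.106).

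The other lists had 0 genes past the threshold in any of the 3 comparisons by limma. Of 6 tested trimming and cross-linking genes, 3 had higher values in IgAN against WT at an unadjusted p under 0.05, where 6.97% of all tested genes did, and 0 had lower values, where 3.37% did. The 2 with the smallest p were Pcolce and Loxl2. Pcolce, which enhances removal of the collagen C-terminal propeptide, was at 71.4, 54.6 and 53.6 FPKM in IgAN, against 50.9, 41.5 and 36.7 FPKM in WT (limma adjusted p = 0.260). Loxl2, a lysyl oxidase that cross-links collagen IV, was at 2.69, 1.35 and 1.85 FPKM in IgAN, against 1.09, 1.19 and 0.905 FPKM in WT (limma adjusted p = 0.266), with a log2 change of 0.50 that was 0.33 without IgAN replicate 1. The 6 tested collagen receptor and uptake genes had 0 at an unadjusted p under 0.05, with Mrc2 and Ddr1 at adjusted p of 0.510 and 0.550. Among the 14 tested other basement membrane genes, the median log2 change in IgAN against WT was 0.01. At an unadjusted p under 0.05, 1 had higher and 1 had lower values, where 6.97% and 3.37% of all tested genes did. The 1 lower gene, Lama4, a laminin chain of vessels, was at 0.660, 1.07 and 0.935 FPKM in IgAN, against 1.19, 1.34 and 1.60 FPKM in WT. The groups did not overlap, where 4.8% of all tested genes had ranges apart and lower. Its log2 change was -0.33 ± 0.12 (SE; limma adjusted p = 0.358).

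Of 5 tested small proteoglycans that bind collagen fibrils, 0 passed the adjusted threshold in IgAN against WT. At an unadjusted p under 0.05, 1 had lower values, Ogn (osteoglycin), and 1 had higher values, Bgn (biglycan), where 3.37% and 6.97% of all tested genes did. Ogn was at 3.35, 3.57 and 5.69 FPKM in IgAN, against 8.91, 7.29 and 8.72 FPKM in WT, without overlap (log2 change -0.86 ± 0.16, SE; limma adjusted p = 0.0746). In GQYS it was at 8.25, 7.23 and 8.01 FPKM, above all IgAN libraries (log2 change 0.79 ± 0.16, SE; limma adjusted p = 0.124). Bgn was at 84.1, 72.3 and 90.6 FPKM in IgAN, against 63.0, 73.1 and 56.9 FPKM in WT, with overlap (limma adjusted p = 0.358). In GQYS against IgAN, the median log2 change was -0.14 in folding, -0.24 in trimming and cross-linking, -0.12 in receptor, 0.14 in other basement membrane and -0.03 in small proteoglycan genes. At an unadjusted p under 0.05, 4 of 18 folding genes, 2 of 6 trimming and cross-linking genes and 1 of 14 other basement membrane genes had lower values in GQYS, where 4.9% of all tested genes did. Higher values at that threshold were found in 3 of those 14 and 1 of 5 small proteoglycan genes, where 5.53% of all tested genes did.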

How the data were processed

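Kidney RNA was extracted with TRIzol and sequenced from VAHTS Universal V6 libraries, per the labels' protocols. The authors deposited FPKM values for 26139 gene symbols and 9 libraries. Named without roles in the submitters' processing notes are GRCm39, DESeq2, HTSeq, HISAT2, fastp and R 3.2.0. Columns were matched through the library names in the labels. Whole reads were recovered from the FPKM steps for all 26139 genes within 0.03 reads, though chance can also give whole numbers for genes detected in few libraries; counting error alone was considered for genes at 0. Replicate libraries differed by at least 17.7 in chi-square per gene.

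The test was limma 3.58.1 (R 4.3.3) on log2(FPKM + 1), with a trend of variance on level, over all 9 libraries. It took the 11617 genes that reached 1 FPKM in 3 or more libraries, with Benjamini-Hochberg adjustment and a threshold of 0.05. A check of it on simulated data drew noise independently for each gene and library. Shifts shared by many genes within a library were not simulated. The log2(FPKM + 1) scale understates changes of low genes. Per-library values are given for the 8 highest fibrillar, all type IV and the 8 highest other collagen genes, and log2 changes for the 5 with the smallest p, those with an unadjusted p under 0.05 and the markers Col1a1, Col3a1 and Col4a1; of each further list, the genes past the threshold and the 2 with the smallest p in IgAN against WT are named, except 1 gene that is not reported here. The members and lists were chosen with earlier results of these data known. Alternatives covered the pseudocount, filter, scaling, block, weights, groups in the fit and libraries left out. Python 3.11.15 and matplotlib 3.10.9 drew the figures.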

Additional observations from a re-analysis of the deposited data

How the results depend on the processing

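The count of collagen genes past the threshold was 0 in each of the 3 comparisons by limma, and between 0 and 0 when each library was left out in turn. It was also 0 with pseudocounts of 0.1 and 0.01, with no filter or a filter of 0.1 FPKM, with median-ratio scaling, quantile normalization, only 2 groups in the fit, without WT replicate 1 and IgAN replicate 1 together, and with voom on the recovered reads. The exception was library quality weights, under which 3 genes passed in IgAN against WT: Col4a1, Col5a1 and Col18a1, with adjusted p of 0.0168, 0.0435 and 0.0430, while 655 of all 11617 tested genes (5.64%) passed in place of 41; the cause was not tested. With the replicate number of the labels as a block the count was 0 in each comparison. The correlations of same-numbered libraries' deviations ran from -0.36 to 0.58, and 4, 3 and 2 of 6 libraries correlated best with their own number over the 3 comparisons. With 3 libraries a group these values cannot settle whether the numbers pair the samples, and the main fit used no block. No log2 change of a collagen gene given here turned its sign under any of these alternatives. The call of P4ha1 also ended without a filter (adjusted p = 0.0808), under quantile normalization (0.0690) and with 2 groups in the fit (0.134). In GQYS against IgAN P4ha1 passed with quality weights (0.00507) and without WT and IgAN replicate 1 together (0.0210). Ogn passed in IgAN against WT under the block (0.0426), with quality weights (0.0403) and without IgAN replicate 3 (0.0268), and in GQYS against IgAN with quality weights (0.0341) and without IgAN replicate 3 (0.0382). P4ha2 and Pcolce passed in IgAN against WT with quality weights (0.00767 and 0.0278). The medians over collagen genes shrink when low genes enter, to 0.03 in IgAN against WT without a filter. The count of all genes called in IgAN against WT, 41 here, was 21 without a filter, 11 with 2 groups in the fit and 68 under the block, and 13 to 64 with a library left out. Depth limits the 10 members that never reached 0.1 FPKM, which rest on few reads.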
